A study of Mus musculus with 6 samples.

Results

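The genes described here are 45 genes of glutathione metabolism, of the NRF2 antioxidant response and of peroxide and superoxide removal, taken by symbol from a table of 23282 genes. All 45 were in the table, and 41 of them had enough counts to be tested among 11657 tested genes. Primary hepatocytes from the livers of C57BL6/N mice were allowed to attach for 3 h and then kept for 24 h without cytokine (control) or with recombinant IL-1β, the interleukin released by activated macrophages such as Kupffer cells. Each group held 3 libraries, although the design text says 2 and then names 3. No genetic change or diet separated the groups, and the dose of IL-1β in these cultures is not in the labels. The comparison asks how the hepatocyte transcriptome responds to IL-1β. The labels do not say whether the libraries of a group came from separate mice, so that p-values measure only the spread between these samples, which may be technical.

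Glutathione is a small thiol peptide made from glutamate, cysteine and glycine, and the liver is a main site of its synthesis and export. Glutathione S-transferases attach it to reactive compounds, glutathione peroxidases spend it on peroxides, and glutathione reductase restores it with NADPH. NRF2, encoded by Nfe2l2, is the transcription factor that switches on many of these genes through the antioxidant response element, and KEAP1 holds it back by directing its breakdown until electrophiles or oxidants modify KEAP1. Peroxiredoxins, most of which remove peroxides with electrons from thioredoxin rather than glutathione, form a parallel arm.

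Transcripts were counted by QuantSeq, which reads the 3′ end of each polyadenylated RNA. Levels are given as CPM, the counts of a gene divided by the library total and multiplied by 1e6, with the total adjusted by the trimmed mean of M values (TMM). Since each transcript gives about the same number of tags whatever its length, levels were not divided by length. A gene is called changed when its Benjamini-Hochberg adjusted p from edgeR's quasi-likelihood test, over all 11657 genes, is under 0.05. Adjusted p values below are from that test unless another setting is named beside them. Those of summed rows are from the same test, refitted with the sums in place of the rows. All fold changes are IL-1β over control. With 3 libraries against 3, an exact permutation test of a single gene cannot go below p = 0.1. RNA from a whole culture cannot tell fewer cells of a type from less RNA per cell.

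After IL-1β, 16 of the 41 tested genes were higher and 7 were lower. Transcripts for peroxiredoxin 1, the Gclm subunit of glutamate-cysteine ligase, glutathione synthetase, glutathione reductase, sulfiredoxin and NRF2 were among those that rose. The transcript of the other ligase subunit, Gclc, rose less, and its call was lost in several alternative fits. These are levels of RNA, not of protein. The transferases split, with Gstm2, Gstm6, Gsta3 and Gsto1 higher and Gsta4, Gstm3, Gstm1, Gstt1 and Gsta2 lower. The changes were mostly modest, and 5 of the higher and 2 of the lower genes passed 1.5-fold. The 16 higher genes are 39% of the 41 tested, against 6.97% of all tested genes, and the 7 lower genes are 17.1%, against 6.44%. Small differences are easier to call in abundant genes, and most of these genes are abundant. Among genes with a mean of at least 100 CPM, a level chosen after the data were seen, 12 of 26 antioxidant genes were higher, against 13.6% of 1748 genes, and 5 were lower, against 10.9%. Every IL-1β library lay above every control library for 17 of the 41 genes, against 14% of all tested genes, and below for 13, against 14.2%. The median log2 fold change was 0.08 over the 41 genes and -0.00183 over all tested genes. The 45 genes together held 1.6 to 1.69% of all counts in the control libraries and 1.77 to 1.84% in the IL-1β libraries.

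**Figure D1:**
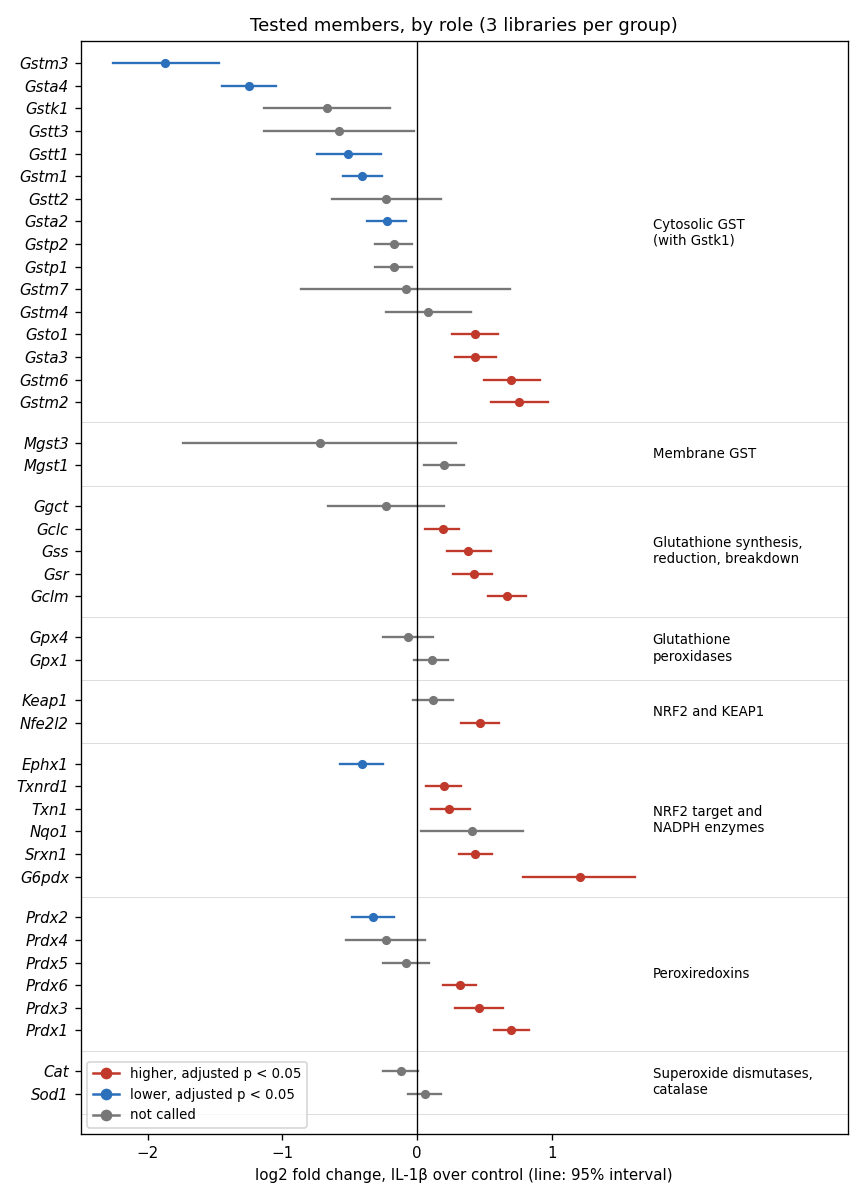
Log2 fold change (IL-1β over control) of the 41 tested genes, grouped by role, with unadjusted 95% intervals from edgeR's quasi-likelihood fit on 3 control and 3 IL-1β libraries. The synthesis genes Gclm, Gsr, Gss and Gclc lie to the right of 0, and the cytosolic transferases spread from -1.87 (Gstm3) to 0.76 (Gstm2).

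Scaling moved the balance of the calls. With total counts in place of TMM, 13 genes were higher and 10 lower, so that 56.5% of the called antioxidant genes were higher in place of 69.6%, while over all called genes the share that was higher went from 52% to 39.7%. With upper-quartile factors the counts were 14 and 10, or 58.3% higher. Of the 23 called genes, 19 kept their call under every alternative fit and with any single library left out, 13 of them higher and 6 lower. Gclc, Txnrd1, Txn1 and Gsta2 did not.

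Nfe2l2, on the minus strand of chromosome 2 (75675519 to 75704641, GRCm38), stood at 202, 203 and 213 CPM in the controls and at 295, 275 and 284 CPM after IL-1β. All 3 IL-1β libraries were above all 3 controls, with a log2 fold change of 0.47 (SE 0.0656, adjusted p = 8.4e-06). Keap1, its negative regulator on chromosome 9 (21229730 to 21239332, minus strand), was at 114, 125 and 119.9 CPM in the controls and at 124, 133 and 133 CPM after IL-1β. The groups overlapped, and the difference of 0.12 on the log2 scale did not pass the test (95% interval -0.03 to 0.27, adjusted p = 0.366).

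The antioxidant response element has the core TGACNNNGC, and promoters that hold it are shown here because NRF2 acts through it. Promoter sequences were those of RefSeq (GRCm38.p6), from 250 bases before to 50 after each start, and both strands were searched. The core was present in 12.4% of 32851 promoters and, counting any promoter of a gene, in 14% of 27025 genes. A promoter was in the table for 39 of the 45 genes, and 12 of these 39 held a core. Cores were found for 7 of the 13 higher genes with a promoter and for 0 of the 6 lower genes. They were also found for 4 of the 17 tested genes that were not called, namely Gstm7, Mgst1, Ggct and Sod1. The remaining gene with a core, Ggt1, was not tested. The 6 genes with no promoter in the table were Gclc, Gsr, Prdx6, Gsta4, Gstt2 and Sod3. A core with TCA in its variable bases also contains TGACTCA, the AP-1 site. These are matches of letters in a window, and binding was not measured. Sequence outside the window was not searched, so a gene without a core here may hold one elsewhere. Nqo1, for example, had a promoter but no core. The 45 genes were chosen in part as genes of the NRF2 response, so their share is not an independent comparison with all genes. Whether NRF2 had a part in the changes was not tested. The 7 windows of the higher genes follow, with the core in capitals, 10 bases on either side, each read 5′ to 3′ on the strand that carries the core.
Prdx1: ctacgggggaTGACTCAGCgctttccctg
Gclm: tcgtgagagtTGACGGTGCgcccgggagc
Nfe2l2: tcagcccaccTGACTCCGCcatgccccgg
Srxn1: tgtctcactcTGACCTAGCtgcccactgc
Txnrd1: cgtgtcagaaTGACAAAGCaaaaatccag
G6pdx: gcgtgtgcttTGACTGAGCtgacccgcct
Gsta3: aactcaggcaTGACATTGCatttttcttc

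The windows lie at chr4:116685456-116685484 (minus strand, Prdx1), chr3:122245413-122245441 (minus, Gclm), chr2:75704885-75704913 (minus, Nfe2l2), chr2:152105542-152105570 (minus, Srxn1), chr10:82859104-82859132 (minus, Txnrd1), chrX:74428919-74428947 (plus, G6pdx) and chr1:21240454-21240482 (plus, Gsta3). Counted along the gene from the start of transcription of that promoter, the first base of the core was at -133 in Prdx1, -134 in Gclm and -240 in Nfe2l2. It was at -92 in Txnrd1, -57 in G6pdx and -121 in Gsta3. Where gene and core lie on opposite strands, this base is the last of the core as printed. Txnrd1 has 3 promoters, and its core lies in 1 of them, inside the gene interval that begins at 82833951. The G6pdx core also lies inside its gene interval, which on the minus strand begins at 74429161. In Srxn1 the first base of the core was downstream of the start, at 28. Of the 7 cores, the Prdx1 core is the one that contains the AP-1 letters.

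Among the NRF2 target and NADPH enzymes, 4 of 6 rose and 1 fell. Over all tested genes 6.97% were higher and 6.44% lower. Among those with a mean of at least 100 CPM the shares were 13.6% and 10.9%. Whether this class, or any class below, differed from these shares was not tested. Srxn1, sulfiredoxin, which repairs over-oxidized peroxiredoxins, was at 928, 977 and 1000.0 CPM in the controls and at 1295, 1269 and 1363 CPM after IL-1β. Its groups were well apart, and the log2 fold change was 0.43 (SE 0.059, adjusted p = 5.4e-06). G6pdx, glucose-6-phosphate dehydrogenase, the entry enzyme of the pentose phosphate pathway and a source of NADPH, had the largest rise of the 41 genes but a low level. It went from 4.88, 6.97 and 5.54 CPM to 14, 12.9 and 13.5 CPM, or 2.31-fold (log2 fold change 1.21, SE 0.201, adjusted p = 9.5e-05).

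Txn1, thioredoxin, the small protein that carries electrons to peroxiredoxins, was at 1079, 862 and 960.4 CPM in the controls and at 1194, 1096 and 1139 CPM after IL-1β. The lowest IL-1β library was just above the highest control (log2 fold change 0.24, SE 0.0698, adjusted p = 0.0202). Txnrd1, the NADPH-dependent reductase of thioredoxin, went from 533, 585 and 559.8 CPM to 665, 626 and 639 CPM (log2 fold change 0.20, SE 0.0616, adjusted p = 0.0288). Both calls were lost with total-count scaling (adjusted p = 0.078 for Txn1 and 0.14 for Txnrd1), that of Txnrd1 also with upper-quartile scaling (0.0641), and each was lost when any of several single libraries was left out. Without control replicate 2, 3 or IL-1β replicate 1, 3, the adjusted p of Txn1 was 0.179, 0.0505, 0.112 and 0.0643, and without control replicate 1, 3 or IL-1β replicate 1, 3 that of Txnrd1 was 0.0664, 0.0665, 0.119 and 0.0589.

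Ephx1, microsomal epoxide hydrolase, which opens reactive epoxides, was the lower gene of this class. It was at 124, 146 and 137 CPM in the controls and at 103, 98.4 and 105 CPM after IL-1β, with a log2 fold change of -0.41 (SE 0.078, adjusted p = 4.5e-04). Nqo1, the quinone reductase often used as a readout of NRF2, was scarce in these cultures, averaging 10.2 ± 2.12 CPM (SD, n = 3) without and 13.5 ± 0.297 CPM (SD, n = 3) with IL-1β. Its IL-1β libraries were all above the controls, but the difference did not pass the test (log2 0.41, 95% interval 0.03 to 0.79, adjusted p = 0.166).

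Of the 5 tested genes of glutathione synthesis, reduction and breakdown, 4 were higher, 0 were lower and Ggct was not called. The shares over all tested genes were 6.97% higher and 6.44% lower. Gclm, the modifier subunit of glutamate-cysteine ligase, the rate-limiting enzyme of synthesis, was at 200.1, 227 and 229 CPM in the controls and at 354, 343 and 349.6 CPM after IL-1β. The groups were far apart (log2 fold change 0.67, SE 0.0679, adjusted p = 4.3e-08). Gclc, the catalytic subunit, was already among the most abundant of the 45 genes, at 1935, 1937 and 1746 CPM, and reached 2229, 2064 and 2105 CPM. Its change was small (log2 fold change 0.19, SE 0.0597, adjusted p = 0.036). It was lost with total-count scaling (adjusted p = 0.155), with upper-quartile scaling (0.0869) and without any of control replicate 2 (0.0559), control replicate 3 (0.194) or IL-1β replicate 1 (0.166), 2 (0.058) or 3 (0.0671).

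Gss, glutathione synthetase, which adds glycine in the last step, was at 86.6, 94.4 and 92.1 CPM in the controls and at 114, 112 and 131 CPM after IL-1β, with a log2 fold change of 0.38 (SE 0.081, adjusted p = 0.00142). Gsr, glutathione reductase, went from 204, 179 and 197 CPM to 254, 265 and 254 CPM, with a log2 fold change of 0.42 (SE 0.0689, adjusted p = 8.6e-05). Neither gene's groups overlapped. Ggct, γ-glutamylcyclotransferase, a breakdown enzyme, was at 9.12 to 11.6 CPM in the controls and 6.73 to 9.79 CPM after IL-1β and did not pass the test (log2 -0.23, 95% interval -0.66 to 0.20, adjusted p = 0.573). The summed level of the 6 listed genes of this class was 2385 ± 96.1 CPM in the controls and 2867 ± 84.1 CPM after IL-1β (SD, n = 3), of which Gclc made up the greater share.

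**Figure D2:**
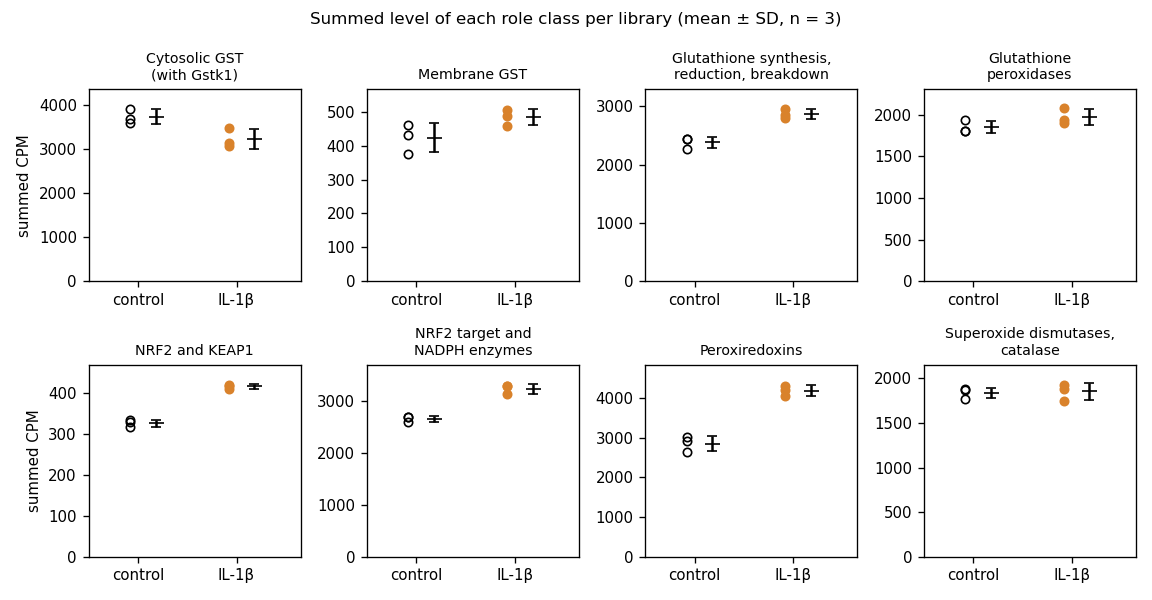
Summed CPM of the genes of each role in each library, with the mean and SD of 3 control and 3 IL-1β libraries. Peroxiredoxins, mostly Prdx1, went from 2858 to 4197 CPM and cytosolic transferases from 3735 to 3229 CPM on average.

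The 16 cytosolic and organellar glutathione S-transferases were all tested, and 4 were higher, 5 lower and 7 not called, with a median log2 fold change of -0.20. For all tested genes the shares were 6.97% higher and 6.44% lower. Gsta4, the alpha-class enzyme known for conjugating the lipid peroxidation product 4-hydroxynonenal, was at 378, 292 and 276 CPM in the controls and at 138, 116 and 145 CPM after IL-1β. The highest IL-1β library was far below the lowest control (log2 fold change -1.25, SE 0.0968, adjusted p = 3.7e-10). Gsta3, an alpha-class enzyme known in mice for detoxifying aflatoxin epoxide, moved the other way, from 163, 150.2 and 181 CPM to 220.0, 222 and 225 CPM (log2 fold change 0.43, SE 0.0731, adjusted p = 1.1e-04). Gsta2, a further alpha-class enzyme, was at 270.3, 251 and 235 CPM and then at 223, 208 and 216 CPM (log2 fold change -0.22, SE 0.0695, adjusted p = 0.0325). The Gsta2 call was lost without control replicate 1 (adjusted p = 0.111) or 2 (0.0878) and without IL-1β replicate 1 (0.0743), 2 (0.164) or 3 (0.0992).

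The alpha genes differ in how well a read can place them. Of the 75-nucleotide windows in the last 500 nucleotides of the Gsta2 transcript (GENCODE M21), 23.9% also occur in Gsta1 or the related gene models Gm10639 and Gm3776, while Gsta3 and Gsta4 share 0 windows with other genes. Gsta1, which is not among the 45, held most alpha counts and stood at 1389, 1294 and 1347 CPM against 1191, 1147 and 1256 CPM (log2 -0.17, adjusted p = 0.0689). It shares 83.6% of its windows with Gsta2 or Gm3776, so that its row is the least certain of the 4 alpha genes. How the counting treated reads with more than 1 match is not given in the sources used here. For this reason the alpha rows Gsta1, Gsta2, Gsta3 and Gsta4 were also summed. Gm10639 and Gm3776 were not part of the sum, which can therefore still depend on how such reads were counted. The sum was 2201, 1987 and 2039 CPM in the controls and 1773, 1694 and 1842 CPM after IL-1β, with a log2 fold change of -0.23 (SE 0.0592, adjusted p = 0.00866). The call on the sum was lost without IL-1β replicate 2 (log2 fold change -0.20, adjusted p = 0.088). Gsta4 made up 13.6 to 17.2% of the alpha counts in the controls and 6.88 to 7.87% after IL-1β, and Gsta3 made up 7.41 to 8.86% and 12.2 to 13.1%.

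The mu-class genes lie side by side on chromosome 3, the 6 listed here between 107926334 and 108044859 on the minus strand, and none shares a 75-nucleotide window of its last 500 nucleotides with another gene. They did not move together. Gstm1, the dominant mu transferase of mouse liver, was at 656, 668 and 699 CPM in the controls and at 477, 485 and 566 CPM after IL-1β (log2 fold change -0.41, SE 0.068, adjusted p = 1.0e-04). Gstm3 had the largest fall of the 41 genes, from 28.4, 21.3 and 22.4 CPM to 6.19, 4.89 and 8.64 CPM (log2 fold change -1.87, SE 0.19, adjusted p = 5.3e-08). Its highest IL-1β library was less abundant than its lowest control.

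Gstm2, between Gstm3 and Gstm1 on the chromosome, rose instead, from 32.9, 34.1 and 38.1 CPM to 53.6, 61.2 and 63.1 CPM (log2 fold change 0.76, SE 0.102, adjusted p = 4.5e-06). Gstm6 rose from 48.2, 42.6 and 38.4 CPM to 64.8, 70.2 and 75.6 CPM (log2 fold change 0.70, SE 0.1, adjusted p = 1.1e-05). Neither gene's groups overlapped. Gstm4 was at 15 ± 0.467 and 15.9 ± 1.78 CPM (SD, n = 3; adjusted p = 0.824), and Gstm7 at 4.52 ± 2.45 and 4.27 ± 1.7 CPM (SD, n = 3; adjusted p = 0.94). Summed with Gstm5, which is not among the 45, the mu rows gave 814, 802 and 836 CPM in the controls and 665, 668 and 771 CPM after IL-1β (log2 fold change -0.22, SE 0.0644, adjusted p = 0.022). The call on the sum was lost without control replicate 2 (log2 fold change -0.23, adjusted p = 0.0571), control replicate 3 (-0.21, 0.0662), IL-1β replicate 1 (-0.18, 0.163) or IL-1β replicate 2 (-0.18, 0.154). Gstm1 made up 80.6 to 83.7% of the mu counts in the controls and 71.7 to 73.4% after IL-1β.

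**Figure D3:**
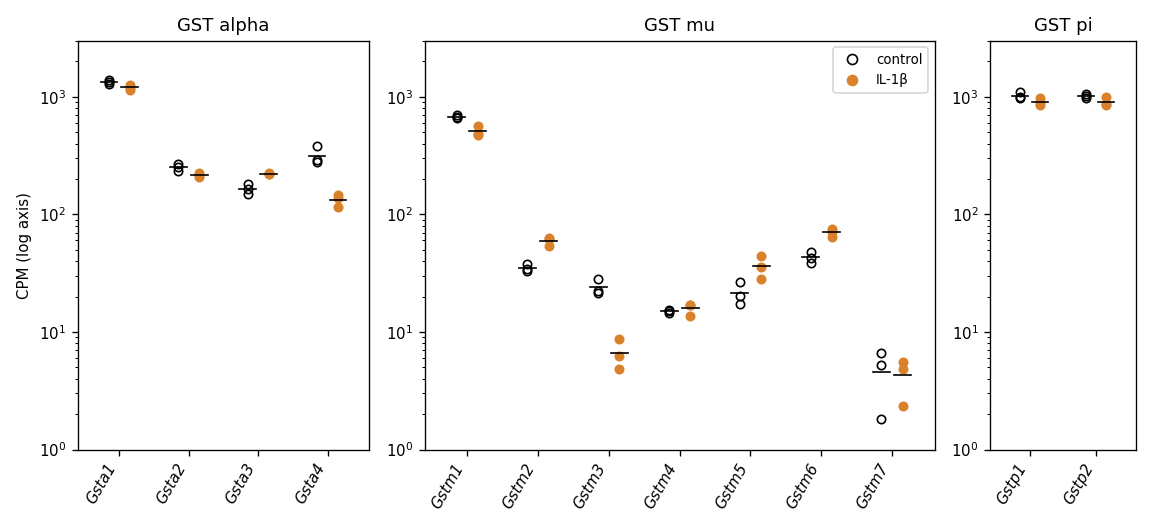
CPM (log axis) of each alpha, mu and pi transferase gene in each of the 6 libraries, with bars at the group means. Gsta1 and Gstm5, which are not among the 45, are included because they enter the family sums. Gsta4, Gstm3 and Gstm1 lie lower after IL-1β, and Gsta3, Gstm2 and Gstm6 higher.

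The pi-class genes Gstp1 and Gstp2, neighbours on chromosome 19 (4035411 to 4037912 and 4040288 to 4042221, minus strand), share 69.2% and 82.4% of their 75-nucleotide windows with each other or with the pseudogene Gstp-ps. Their separate rows are therefore uncertain, and their counts were nearly equal in every library (ratio 0.98 to 1.04). Gstp-ps was not part of the sum given below, which can still depend on how shared reads were counted. Gstp1 was at 1095, 983 and 993 CPM in the controls and at 891, 853 and 979 CPM after IL-1β (log2 fold change -0.17, adjusted p = 0.085). Gstp2 was at 1056, 979 and 1013 CPM and at 867, 849 and 989 CPM (log2 fold change -0.17, adjusted p = 0.0865). Their sum, 2151, 1962 and 2006 CPM in the controls against 1759, 1703 and 1968 CPM, did not pass the test (log2 fold change -0.17, 95% interval -0.30 to -0.04, adjusted p = 0.0729). It passed with upper-quartile (adjusted p = 0.0351) or total-count scaling (0.0135), without a filter on low counts (0.0309) and without IL-1β replicate 3 (log2 fold change -0.23, adjusted p = 0.0239).

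Of the remaining transferases, Gsto1, the omega-class enzyme with thiol transferase activity, was at 104, 86.8 and 106 CPM in the controls and at 127, 136 and 136 CPM after IL-1β. It rose without overlap (log2 fold change 0.43, SE 0.0825, adjusted p = 5.9e-04). Gstt1, of the theta class, fell from 39.6, 38.7 and 38.9 CPM to 25, 26.1 and 31.2 CPM (log2 fold change -0.51, SE 0.114, adjusted p = 0.00263). Its neighbours on chromosome 10, Gstt2 (log2 -0.23, adjusted p = 0.559) and Gstt3 (log2 -0.58, adjusted p = 0.187), did not pass the test and had means of 13.4 and 6.32 CPM in the controls. Gstk1, the kappa-class enzyme of mitochondria and peroxisomes, averaged 8.89 ± 0.43 CPM without and 5.59 ± 0.997 CPM with IL-1β (SD, n = 3). Its groups did not overlap, and it just missed the threshold (log2 -0.67, adjusted p = 0.0513). It passed with total-count (adjusted p = 0.032) or upper-quartile scaling (0.0398), without a filter (0.046) and with limma (0.0427).

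Mgst1, the microsomal transferase that also reduces lipid peroxides, was at 431, 374 and 459 CPM in the controls and at 488, 505 and 457 CPM after IL-1β. The groups overlapped (log2 0.20, 95% interval 0.05 to 0.35, adjusted p = 0.0731). It passed without a filter on low counts (adjusted p = 0.0308), without control replicate 1 (0.0357) and without control replicate 3 (0.0233). Mgst3 was near the limit of detection, at 1.64 ± 0.292 and 0.993 ± 0.263 CPM (SD, n = 3; adjusted p = 0.417).

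Peroxiredoxins differed more in summed level than any other class in the plot of class sums, at 2858 ± 199.9 CPM without and 4197 ± 132 CPM with IL-1β (SD, n = 3). Most of that difference came from Prdx1, at 1952 and 3174 CPM on average. Of the 6 genes, 3 rose and 1 fell, against 6.97% higher and 6.44% lower over all tested genes. Prdx1, the cytosolic form and an NRF2 target, was at 1763, 2011 and 2081 CPM in the controls and at 3071, 3194 and 3256 CPM after IL-1β. It was the most abundant of the 45 genes in the IL-1β libraries and rose by 62.6% (log2 fold change 0.70, SE 0.0627, adjusted p = 5.1e-09). Prdx6, the form that uses glutathione and also acts as a phospholipase, went from 534, 545 and 551 CPM to 660.5, 662 and 708 CPM (log2 fold change 0.32, SE 0.0604, adjusted p = 4.8e-04). Prdx3, the mitochondrial form, went from 57.8, 53.3 and 60.5 CPM to 80.1, 75.1 and 81.3 CPM (log2 fold change 0.46, SE 0.0875, adjusted p = 4.3e-04).

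Prdx2, the other main cytosolic form, fell from 126, 131 and 135 CPM to 97.2, 104 and 110.0 CPM (log2 fold change -0.33, SE 0.076, adjusted p = 0.00367). Prdx1 and Prdx2 therefore moved in opposite directions, each without overlap between the groups. Prdx4, of the endoplasmic reticulum, was at 18.8 to 20.9 CPM in the controls and 14.4 to 18.2 CPM after IL-1β (adjusted p = 0.356), and Prdx5, found in several organelles, at 155 ± 19.3 and 147 ± 7.54 CPM (SD, n = 3; adjusted p = 0.654).

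**Figure D4:**
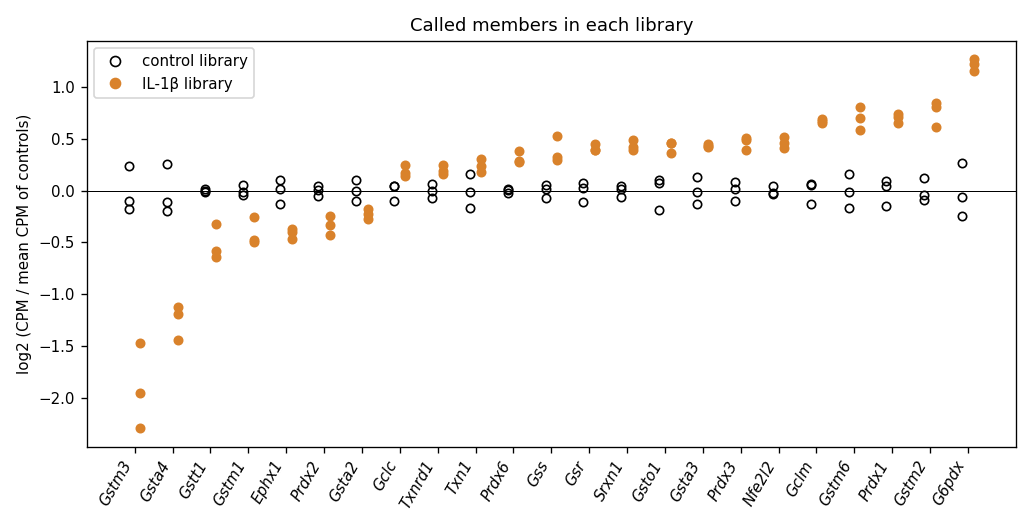
Log2 ratio of each library's CPM to the control mean for the 23 called genes, 16 higher and 7 lower, with the 3 control and 3 IL-1β libraries as separate points. In each gene the groups do not overlap, and Gstm3, Gsta4 and G6pdx show the widest separation.

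The tested glutathione peroxidases Gpx1 and Gpx4, Sod1 and Cat did not pass the test. Gpx1, the cytosolic glutathione peroxidase, was at 1615, 1654 and 1789 CPM in the controls and at 1739, 1801 and 1909 CPM after IL-1β (log2 0.11, 95% interval -0.02 to 0.23, adjusted p = 0.296). Sod1, the copper-zinc superoxide dismutase, was at 1299, 1411 and 1419.9 CPM and at 1346, 1463 and 1482 CPM (log2 0.06, 95% interval -0.07 to 0.18, adjusted p = 0.658). The groups of both genes overlapped. Cat, the peroxisomal catalase, was at a mean of 460.4 ± 6.14 and 425 ± 22.9 CPM (SD, n = 3). Its IL-1β libraries lay below the controls without passing the test (log2 -0.12, 95% interval -0.25 to 0.01, adjusted p = 0.276). Gpx4, which reduces lipid peroxides in membranes, was at 164 ± 23.3 and 156 ± 15.5 CPM (SD, n = 3; adjusted p = 0.721), but 81% of the windows at its 3′ end also occur in Gpx4-ps2 or AC122253.3, so that its row is uncertain. For Sod1 the shared portion was 16%, with Gm8566.

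Over the 18 tested genes that were not called, the 95% interval stayed within 0.5 of 0 on the log2 scale for 10. For the others, Gstk1, Gstm7, Gstt2, Gstt3, Mgst3, Ggct, Nqo1 and Prdx4, the interval reached further, so that a change larger than that could not be told apart from a smaller one at this depth. The 4 genes that were not tested had few counts. Gpx3, the secreted peroxidase made mainly by the kidney, had 4, 20 and 9 counts in the controls and 6, 10 and 18 after IL-1β. Sod3, the extracellular superoxide dismutase, had 0, 1 and 2 counts and 0 in each IL-1β library. Mgst2 had 1, 0 and 0 counts and then 0, 3 and 0, and Ggt1, which breaks down glutathione outside the cell, had 3, 0 and 0 counts and then 0 in each. A count of 0 allows up to 3 counts, or 0.268 to 0.32 CPM depending on the library, for counting error only.

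Other genes of these pathways were read from lists of genes outside the 45. For comparison with the counts in each list, 6.97% of all tested genes were higher and 6.44% were lower. Among genes with a mean of at least 100 CPM these shares were 13.6% and 10.9%. Whether the share in any list differed from that over all genes was not tested. Of 23 tested glutathione genes, 8 were higher and 2 lower, with a median log2 fold change of 0.11. Abcc1, the MRP1 transporter that exports glutathione and its conjugates, went from 8.54, 14.7 and 16.9 CPM to 75.7, 78 and 79.9 CPM (5.83-fold, log2 fold change 2.54, SE 0.147, adjusted p = 1.1e-12). Slc7a11, the cystine importer that feeds glutathione synthesis, rose by 0.75 on the log2 scale (adjusted p = 1.8e-08) and Glrx, glutaredoxin, by 1.01 (adjusted p = 2.3e-06). Anpep, an aminopeptidase that cleaves the dipeptide left from glutathione, fell (log2 fold change -1.42, adjusted p = 3.4e-06).

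Of 10 tested genes of methionine and cysteine supply, 2 rose and 2 fell, with a median of -0.12. Mat1a, which makes S-adenosylmethionine in hepatocytes, rose by 1.07 on the log2 scale (adjusted p = 9.9e-11) and Cth, which releases cysteine from cystathionine, by 0.97 (adjusted p = 9.7e-07). Cbs, the enzyme just before Cth in that route, fell (log2 fold change -0.65, adjusted p = 2.9e-05), as did Gnmt, the glycine methyltransferase (log2 fold change -0.41, adjusted p = 0.00678). The enzymes on either side of cystathionine thus moved in opposite directions.

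Of 28 further NRF2 partners and target genes, 12 were higher and 3 lower, with a median of 0.18. The ferritin heavy chain Fth1 (log2 fold change 0.78, adjusted p = 1.5e-10), the pentose phosphate enzyme Taldo1 (0.75, adjusted p = 8.9e-10), the biliverdin reductase Blvrb (0.61, adjusted p = 1.8e-07) and Bach1, a repressor at the same element (0.81, adjusted p = 2.3e-07), rose. The 3 lower genes were Hmox1, the inducible heme oxygenase, Osgin1 and Ugdh. Of 17 tested genes of thioredoxin, peroxide and superoxide handling, 2 were higher and 2 lower, with a median of -0.02. Sod2, the mitochondrial superoxide dismutase and a known NF-κB target, was at 263, 329 and 360.0 CPM in the controls and at 861, 869 and 830.2 CPM after IL-1β (2.69-fold, log2 fold change 1.43, SE 0.0817, adjusted p = 9.8e-13). Sesn2, a sestrin, was higher at a low level, 2.8 and 5.38 CPM on average (log2 fold change 0.94, SE 0.313, adjusted p = 0.0484). Msra (log2 fold change -0.70, adjusted p = 0.00215) and Park7 (log2 fold change -0.23, adjusted p = 0.0346) were lower.

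The libraries held 9538741 to 11105408 counts, of which the ribosomal precursor Rn45s took 11.7 to 14.2%. The cultures expressed hepatocyte markers, with Alb averaging 16183 CPM without IL-1β, although Cps1 and Ass1 were near 0. The summed hepatocyte markers were at 20456 to 20658 CPM in the controls and 16979.7 to 17868 CPM after IL-1β, and 6 of 7 tested markers fell. Over all tested genes 6.44% were lower, and 10.9% of those with a mean of at least 100 CPM. Summed Kupffer cell markers were at 206 to 236 CPM in the controls and 209 to 236 CPM after IL-1β, most of it Cd68 at 192 and 184 CPM, with 0 of 6 called. The median log2 fold change of these 6 was 0.54, with values above 0 for 4 of them. These were C1qa (0.75, adjusted p = 0.211), Marco (0.67, 0.141, without overlap), Adgre1 (0.64, 0.582) and Csf1r (0.44, 0.463). Cd5l, at 19.9 and 17.2 CPM, went the other way (-0.21, adjusted p = 0.392, also without overlap), as did Cd68 (-0.06, 0.7). The summed stellate markers were at 19.6 to 22.7 and 20.8 to 27.7 CPM, with 0 of 3 called. Among endothelial markers Clec4g and Kdr fell and Lyve1 rose, with sums of 40.4 to 46.2 and 37.5 to 42.9 CPM. The cholangiocyte list went from 315 to 329 CPM to 236 to 239 CPM, where Spp1 fell from 189.6 to 82.7 CPM on average, Sox9 was at 134 and 154 CPM (log2 0.21, adjusted p = 0.0518) and Epcam was at 0 in every control. Among neutrophil genes S100a8 was at 0 in the controls and at 2.03, 3.45 and 4.74 CPM after IL-1β, while S100a9 and Retnlg were at 0 in all libraries, as were the lymphocyte genes Cd3e, Cd79a and Ms4a1. The part of these shifts in the results for the antioxidant genes was not tested.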

How the data were processed

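RNA of 6 samples was profiled by QuantSeq 3′ mRNA sequencing (single-end, 75 nucleotides), and the labels do not say whether these were separate cultures. The deposited table gives raw counts per gene made by the authors. The submitters' processing notes name Bowtie2, mm10, GRCm38 and edgeR. Tool versions, the counting tool, strand and the handling of multiple matches are not given in the sources used here. Further columns hold the authors' fold changes, p-values, averages and log2 normalized values and were not used.

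Counts were fitted with edgeR 4.0.16 in R 4.3.3 (filterByExpr, TMM, quasi-likelihood test, Benjamini-Hochberg adjustment over 11657 genes), and each SE is the log2 fold change over the square root of F. Rows of alpha, mu and pi transferases were summed and refitted. The alternatives tried were DESeq2 1.42.0, scaling by upper quartiles or by total counts, removal of Rn45s, no filter, at least 10 counts in every library, limma 3.58.1 on log2(CPM + 1), a replicate block, adjusted p under 0.01, fold change over 1.5, and each library left out. The scripts were tested on simulated data.

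The 45 genes and the other lists were chosen with earlier results of these data known. All 45 are named. Values per library are given for called genes, for the 5 most abundant genes not called, for Nfe2l2 and Keap1 and for the sums. Of each other pathway list up to 4 called genes with the smallest adjusted p have values, and the 3 lower NRF2 targets were named after their values were seen. Positions were those of the deposited table, and all 45 genes overlapped their RefSeq GRCm38 intervals. Intervals and floors cover counting error and the spread between libraries only.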

Additional observations from a re-analysis of the deposited data

How the results depend on the processing

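The 16 higher and 7 lower genes became 13 to 16 and 6 to 8 when a library was left out, and all called genes, 1563 in number, became 1131 to 1596. Requiring a fold change over 1.5 left 5 higher and 2 lower. The summed log2 fold changes with a library left out ranged from -0.26 to -0.18 (alpha), -0.29 to -0.18 (mu) and -0.23 to -0.13 (pi). The pi sum passed the test at -0.20 (upper-quartile scaling), -0.23 (total counts), -0.17 (no filter) and -0.17 (replicate block). Leaving out a library turned the direction of Gstm7 (-0.45 to 0.28), Gpx4 (-0.14 to 0.05) and Prdx5 (-0.17 to 0.00062), none of which was called. Why these results moved was not tested. With DESeq2 the counts were 16 and 7, with limma 16 and 8, without a filter 17 and 10. Deviations from the group mean correlated at 0.062, 0.0079 and 0.0038 between same-numbered control and IL-1β libraries. Between differently numbered ones they correlated at -0.078 to 0.076. With 3 libraries per group these values cannot tell whether the numbers pair the samples. The replicate block gave 17 higher and 10 lower genes and 1671 calls over all genes, and the added calls were Mgst1 (adjusted p = 0.0395), Gstk1 (0.0493), Gstp1 (0.0354) and Gstp2 (0.0318). Depth limits the genes under about 10 CPM, whose standard errors reached 0.492.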
